A study of Mus musculus with 6 samples.

Results

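The genes described here encode the actin cytoskeleton of leukocytes. They were chosen by symbol: 51 genes were listed, and 51 were found among the 15443 gene symbols of the table. RNA was measured in mouse bone marrow cells kept in culture for 3 days with FLT3LG, a growth factor under which marrow progenitors give rise to dendritic cells. Of the 6 libraries, 3 came from cultures that also received recombinant human midkine, a secreted heparin-binding growth factor, at 10 ng/ml (replicates 3, 4 and 5). The other 3 were controls without midkine (replicates 1, 2 and 4). Both groups came from wild-type C57BL/6J mice and both had FLT3LG at 50 ng/ml. Nothing in the labels tells whether a replicate is its own mouse or culture. The p-values therefore reflect only how far these 6 samples scatter, and part of that scatter may be technical. The cells were whole marrow cultures, in which fewer cells of a type and less RNA per cell cannot be told apart.

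Actin exists as monomers and as filaments that grow at one end and shrink at the other. Profilin and the beta-thymosins hold monomers, the Arp2/3 complex starts branches when WASP and WAVE proteins switch it on, formins and Ena/VASP proteins lengthen filaments, and cofilin, coronins, gelsolin-type proteins and capping protein limit or take them apart. Myosin II pulls on filaments, while alpha-actinins, filamin and plastin tie them together and talin, vinculin and zyxin join them to integrin adhesions. Leukocytes use this machinery to crawl, to take up particles and to form contacts with other cells. Many actin genes are controlled by the transcription factor SRF, whose coactivators of the myocardin-related family are held back by free actin monomers.

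SRF binds the CArG box, a pair of C followed by a run of A and T and a pair of G. Because actin genes are known SRF targets, promoter windows (250 bases before to 50 after each RefSeq start, build GRCm38.p6) were searched for a complete box. The motif is its own reverse complement, so 1 search covers both strands. Windows of 47 of the 51 members were searched. A filter on genome position was applied to the members and not to all genes, so the sets compared next were not drawn alike. A box lay in the window of 5 of these 47 genes (10.6%), against 488 of 27025 genes with a window (1.81%). The 5 windows are shown 5′ to 3′ on the strand of the gene, each reaching up to 45 bases to either side of the box, with the box in capitals. They lie at chr11:120348531-120348630 (minus strand) for Actg1, chr6:113377863-113377917 (plus) for Arpc4, chr10:79988499-79988598 (plus) for Cnn2, chr10:128493005-128493104 (minus) for Myl6 and chr14:20929148-20929225 (plus) for Vcl.
Actg1: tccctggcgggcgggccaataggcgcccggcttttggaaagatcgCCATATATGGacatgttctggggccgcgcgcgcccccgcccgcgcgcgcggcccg
Arpc4: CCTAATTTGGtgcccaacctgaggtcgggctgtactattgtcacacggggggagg
Cnn2: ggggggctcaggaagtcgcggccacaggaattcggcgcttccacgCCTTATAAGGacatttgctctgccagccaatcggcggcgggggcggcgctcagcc
Myl6: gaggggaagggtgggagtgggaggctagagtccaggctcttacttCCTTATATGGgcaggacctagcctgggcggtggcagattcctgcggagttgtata
Vcl: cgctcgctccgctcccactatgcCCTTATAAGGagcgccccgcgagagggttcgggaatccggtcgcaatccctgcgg
The first base of the box lay 90 bases before the start in Actg1, 56 in Cnn2, 50 in Myl6, 227 in Vcl and 250 in Arpc4. For Myl6 the start is not the outermost one. The whole searched window (chr10:128492960-128493259) lies inside the annotated gene (chr10:128490860-128494145, minus strand). A match is a description of the letters and not a bound site.

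Values are normalized counts from a 3′ kit that yields 1 fragment per transcript, so they are not scaled to gene length. The reads per library, recovered from the deposited values, ranged from 5985684 to 7233960. The library midkine 5 stood apart from the other 5: its score on the first principal component (57.1% of the variance) was 86.0, and the others lay between −28.2 and 1.94. Reads from mitochondrial ribosomal RNA made up 4.12% of midkine 3, 4.69% of midkine 4 and 0.377% of midkine 5, against 4.91 to 6.16% of control libraries. Markers of other cell types differed between the groups as well. The 12 monocyte and macrophage markers summed to 60049 to 98722 normalized counts in midkine libraries and 44428 to 46625 in controls. Of them, 8 lay above all controls in all 3 midkine libraries and 1 below, beside 15.5% and 15.3% of all genes tested. The counts of the lists that follow are to be read against the same shares. The 12 neutrophil markers summed to 177809 to 190203 in midkine libraries and 124575 to 138402 in controls, with 9 above and 0 below. The 12 dendritic cell markers summed to 2308 to 2511 in midkine libraries and 3459 to 3716 in controls, with 0 above and 8 below. Among the 8 megakaryocyte and platelet markers, which also belong to cells rich in actin, 3 were above and 0 below (10685 to 15046 in midkine libraries, 8270 to 9234 in controls). The B cell markers summed to 2878 to 4858 in midkine libraries and 2583 to 3447 in controls, and the mast cell, basophil and eosinophil markers to 1749 to 2707 and, in controls, 964 to 1211. Of 8 B cell markers, 2 were above and 0 below. Of 7 mast cell, basophil and eosinophil markers tested, 4 were above and 0 below. The 4 T and NK cell markers in the table summed to 41.8 to 81.2 in midkine libraries and 46.0 to 62.1 in controls, and the 4 erythroid markers to 110 to 176 and, in controls, 45.1 to 77.9. Of the erythroid markers 1 was above and 0 below, and of 3 T and NK cell markers tested 0 were above and 0 below. Markers of stroma, smooth muscle and endothelium summed to 1135 to 1967 in midkine libraries and 1672 to 2169 in controls, with 0 above and 3 below of 11 tested. No marker of these lists was at 0 in all libraries, and their part in the actin results was not tested.

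The groups did not overlap for 22 of 51 members, beside 30.8% of all genes tested: 21 lay higher in every midkine library than in any control, where 15.5% of all 13543 genes tested did so, and only Tmsb10 lay lower, where 15.3% did. The median log2 fold change of the members (midkine minus control, on log2(normalized count + 1)) was 0.21, against −0.0040 over all genes tested, and 35 members had a positive value. By role, the median with all libraries and without midkine 5 was 0.52 and 0.43 for 5 crosslinkers, 0.44 and 0.42 for 6 genes of the monomer pool, and 0.43 and 0.35 for 10 severing and capping genes. It was 0.32 and 0.25 for 8 Arp2/3 genes, 0.18 and 0.12 for 3 adhesion adaptors, 0.070 and 0.077 for 6 nucleation promoters and elongators, and 0.060 and 0.086 for 4 membrane linkers and others. For the 9 tropomyosin, calponin and myosin genes it was −0.10 with all libraries and −0.010 without midkine 5. Together the 51 genes took 4.03, 3.87 and 4.64% of the reads of midkine 3, 4 and 5, and 3.85, 3.61 and 3.53% in controls 1, 2 and 4. A few genes weigh heavily in this sum. Tmsb4x alone took a mean of 0.566% of reads with midkine and 0.317% in control, and Actb 1.49% and 1.56%. No member passed an adjusted p of 0.05 with all 6 libraries, where the test called 0.0% of all genes in either direction (limma, Benjamini-Hochberg over all genes; smallest adjusted p of a member 0.0881). At an unadjusted p under 0.05 there were 17 members higher and 1 lower, beside 10.4% and 9.3% of all genes. edgeR's quasi-likelihood test also called 0 members (0.0443% of genes higher, 0.0295% lower), while DESeq2 called 6 higher and 0 lower, beside 3.97% and 1.95% of genes.

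Midkine 5 held the highest or the lowest value of the 6 libraries for 46 of 51 members (90.2%; 68.3% of all genes tested). Without that library, limma called 21 members higher and 0 lower, where it called 9.92% of all genes higher and 8.52% lower. edgeR on the same 5 libraries called the same 21, beside 10.5% and 7.97% of genes. Without midkine 5 the groups did not overlap for 32 members higher and 1 lower, beside 23.8% of all genes in each direction. When limma gave each library a weight from the data, it called 24 members higher and 2 lower (Tmsb10 and Tpm1), beside 19.1% and 18.4% of genes. Of the 21 members that limma called without midkine 5, 15 lay above every control in all 3 midkine libraries. The other 6 did not: Pfn1, Cap1, Cfl1, Capza2, Lcp1 and Plek. The median deviation of the members from the control mean was 0.23 in midkine 3, 0.28 in midkine 4 and 0.21 in midkine 5 on the log2 scale. Midkine 3 and 4 were both above the control mean for 36 members, and midkine 5 was above it for 25 of those and below it for 11.

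**Figure D1:**
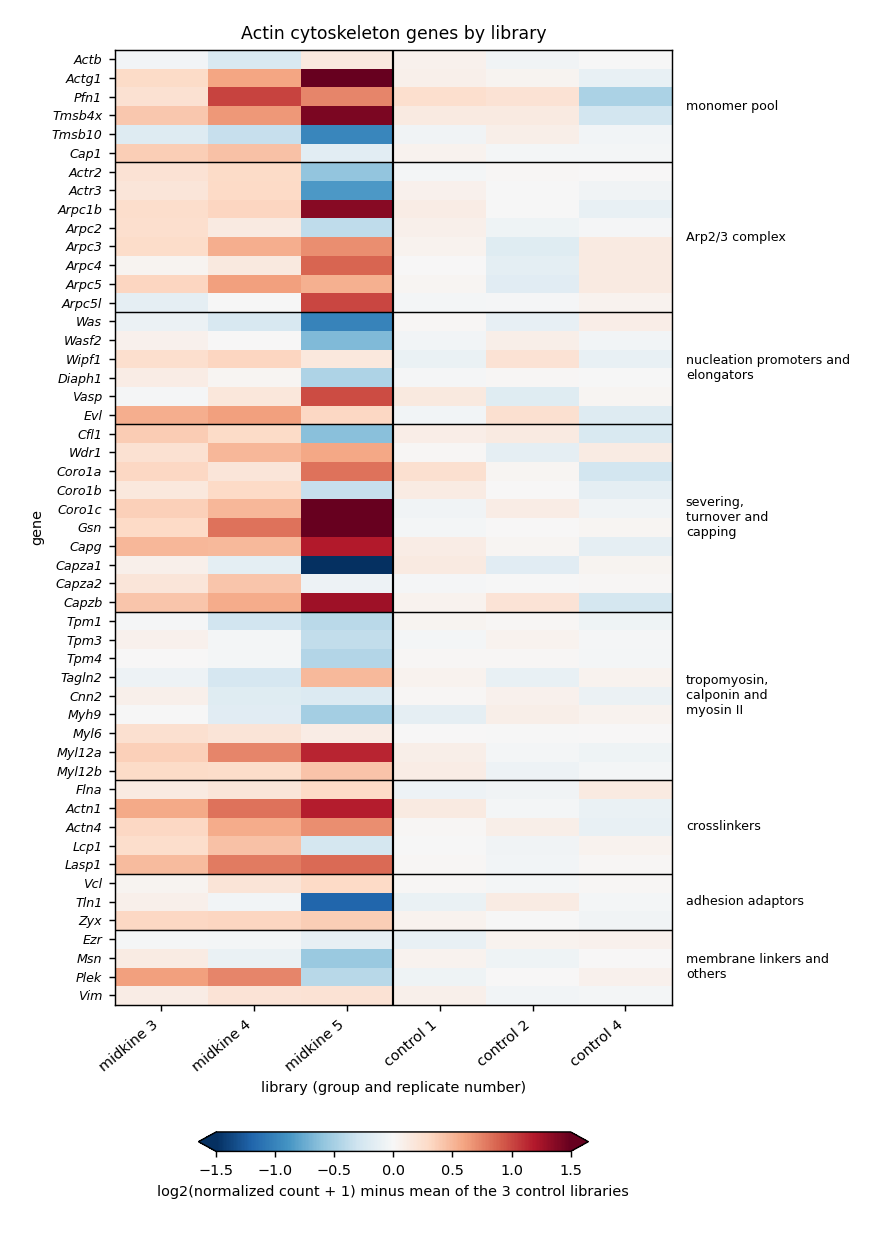
Colour gives log2(normalized count + 1) minus the mean of the 3 control libraries, for each of the 51 genes (rows, grouped by role) in each library (columns, midkine 3, 4 and 5 left of controls 1, 2 and 4). Red marks values above the control mean and blue values below it, with colours ending at 1.5 in either direction, and midkine 5 holds the highest or lowest value in 46 of 51 rows.

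Of actin itself, the gamma form lay higher in all midkine libraries while the beta form overlapped. Actb, the major cytoplasmic actin and the member with the highest count, had 94468, 82611 and 107640 normalized counts in midkine 3, 4 and 5 and 101222, 93225 and 96834 in controls 1, 2 and 4. Its groups overlapped, and its log2 fold change of −0.040 ± 0.192 (SE) became 0.55 with quantile normalization. Actb had the highest count of all genes in midkine 5 and ranked 3 or 4 elsewhere. Actg1, the gamma cytoplasmic actin, had 7462, 9267 and 17313 in midkine libraries and 6475, 6289 and 5656 in controls. Every midkine library lay above every control, with a log2 fold change of 0.79 ± 0.290 (limma, adjusted p = 0.201; without midkine 5, 0.44 and 0.0119). Actg1 made up 7.32, 10.1 and 13.9% of the reads of the Actb and Actg1 pair in midkine 3, 4 and 5, and 6.01, 6.32 and 5.52% in controls 1, 2 and 4. This share does not depend on the scaling between libraries, and its means were 10.4 ± 3.28% with midkine and 5.95 ± 0.404% in control (SD, n = 3 each; exact permutation test, two-sided, p = 0.1).

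Among the proteins that hold actin monomers, the 2 beta-thymosins lay on opposite sides of their controls. Tmsb4x, thymosin beta-4, had 25954, 30846 and 52120 normalized counts in midkine libraries and 21517, 21611 and 16213 in controls. It lay higher in all midkine libraries, with a log2 fold change of 0.82 ± 0.275 (limma, adjusted p = 0.178; without midkine 5, 0.53 and 0.0145; DESeq2 with all 6, adjusted p = 0.0470). Tmsb10, thymosin beta-10, had 705, 634 and 408 in midkine libraries and 776, 859 and 782 in controls, and was the only member that lay lower in each midkine library than in any control. Its log2 fold change was −0.50 ± 0.214 (limma, adjusted p = 0.245; without midkine 5, −0.27 and 0.0833). Profilin-1, which hands monomers to growing ends, is encoded by Pfn1, with 361, 623 and 512 in midkine libraries and 367, 359 and 221 in controls. Midkine 3 fell among the controls for Pfn1, though limma without midkine 5 called it higher (log2 fold change 0.62, adjusted p = 0.0427). Cap1, which recycles monomers with cofilin, had 1873, 1954 and 1300 in midkine libraries and 1497, 1419 and 1419 in controls, so midkine 5 lay below all controls and midkine 3 and 4 above them. Without midkine 5 limma called it higher (0.40, adjusted p = 0.00633).

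The Arp2/3 complex, which builds branched filaments, did not follow a single pattern. Of its 8 genes among the members, Arpc1b, Arpc3 and Arpc5 lay above all controls in all midkine libraries and the other 5 overlapped. Arpc3, a small subunit, had 4251, 5151 and 5709 normalized counts in midkine libraries and 3643, 3100 and 3865 in controls. Arpc5, the smallest subunit, had 2395, 2918 and 2775 in midkine libraries and 1954, 1697 and 2105 in controls. Both were called higher by limma without midkine 5 (log2 fold change 0.41, adjusted p = 0.0189, and 0.47, adjusted p = 0.00786), and with all 6 libraries they had 0.51 and 0.49 (adjusted p = 0.178 and 0.159). Arpc1b, the form of the scaffold subunit that blood cells favour, had 7611, 7911 and 16340 in midkine libraries and 6864, 6341 and 5862 in controls. It was separated in each library, but midkine 5 alone stood far above, and the log2 fold change was 0.65 with that library and 0.29 without it (adjusted p = 0.261 and 0.0626). Arpc1a, the other form of that subunit, is not a member and was counted with other actin-binding proteins. It had 403, 487 and 1116 in midkine libraries and 337, 339 and 280 in controls, without overlap. Its log2 fold change was 0.92 (limma, adjusted p = 0.208; without midkine 5, 0.48 and 0.0132).

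The remaining members of the complex split by library. The actin-related proteins Actr2 and Actr3, which form the seed of the new branch, had 2682, 2825 and 1528 and 2230, 2415 and 1079 normalized counts in midkine libraries, against 2268, 2339 and 2315 and 2055, 1959 and 1894 in controls. Both were above the controls in midkine 3 and 4 and below them in midkine 5. Arpc2, the core subunit with the highest mean after Arpc1b, behaved alike (9867, 9122 and 6373 in midkine libraries, 8758, 7914 and 8173 in controls). Arpc4 had 1818, 1955 and 3246 in midkine libraries and 1770, 1603 and 1946 in controls. Midkine 3 fell among the controls for Arpc4, midkine 4 lay barely above them and midkine 5 far above. Arpc5l, the second form of Arpc5, was above the controls only in midkine 5 (1646, against 800 to 847 in controls). Arpc5 made up 76.2, 78.2 and 62.8% of the reads of the Arpc5 and Arpc5l pair in midkine 3, 4 and 5, and 70.9, 67.7 and 71.3% in controls, and the groups overlapped (exact permutation test, two-sided, p = 0.7).

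Of the factors that switch on nucleation or lengthen filaments, Evl alone was separated between the groups. Evl, a member of the Ena/VASP family, had 667, 701 and 570 normalized counts in midkine libraries and 445, 541 and 399 in controls. Its log2 fold change was 0.49 ± 0.170 with all libraries and 0.58 ± 0.123 without midkine 5 (limma, adjusted p = 0.186 and 0.00331). Vasp, its relative, had 1318, 1502 and 2629 in midkine libraries and 1479, 1172 and 1363 in controls, so that midkine 3 fell among the controls (log2 fold change 0.38, and 0.079 without midkine 5). Was, the WASP protein that is lost in Wiskott-Aldrich syndrome, had 926, 828 and 489 in midkine libraries and 995, 901 and 1053 in controls. Its groups overlapped (log2 fold change −0.44, limma, adjusted p = 0.337; without midkine 5, −0.16 and 0.304). Wipf1, which binds and stabilizes WASP, had 650, 683 and 606 in midkine libraries and 507, 632 and 505 in controls, with midkine 5 inside the control range. Wasf2, a WAVE protein, and Diaph1, a formin, overlapped as well. Their log2 fold changes were −0.20 and −0.10 with all libraries, and the sign turned without midkine 5 (0.034 and 0.074).

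With all 6 libraries the genes for severing and capping held the members with the largest log2 fold changes, Gsn and Coro1c. Without midkine 5, Actn1, Plek, Lasp1, Pfn1 and Evl had larger ones than Gsn. Gsn, which encodes gelsolin, a calcium-dependent severing and capping protein, had 1316, 1874 and 5891 normalized counts in midkine libraries and 1043, 1069 and 1090 in controls. All midkine libraries lay above the controls, but midkine 5 was far above the other 2, and the log2 fold change was 1.19 ± 0.472 with it and 0.56 ± 0.123 without it (limma, adjusted p = 0.224 and 0.00413). Capg, a macrophage-rich relative of gelsolin that caps without severing, had 1036, 1024 and 1666 in midkine libraries and 790, 745 and 667 in controls. It was separated in every library (log2 fold change 0.72 ± 0.211, adjusted p = 0.140; without midkine 5, 0.49 and 0.00312). DESeq2 with all 6 libraries called both Gsn and Capg (adjusted p = 0.0262 and 0.0442).

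Capping protein, a dimer of an alpha and a beta chain, had unequal values among its chains. Capzb, the beta chain, had 2072, 2279 and 3767 normalized counts in midkine libraries and 1618, 1797 and 1292 in controls, with no overlap (log2 fold change 0.75 ± 0.246, adjusted p = 0.172; without midkine 5, 0.48 and 0.00959). Capza2, an alpha chain, had 1939, 2275 and 1615 in midkine libraries and 1688, 1699 and 1729 in controls, so midkine 5 lay below the controls and the others above. Capza1, the other alpha chain and the member with the lowest mean, had 277, 236 and 82.6 in midkine libraries and 287, 233 and 269 in controls. Midkine 5 alone was low, and without it the log2 fold change of Capza1 was −0.034 (adjusted p = 0.894).

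Wdr1, which helps cofilin to take filaments apart, had 974, 1169 and 1244 normalized counts in midkine libraries and 839, 757 and 901 in controls. It was separated in all libraries (log2 fold change 0.44 ± 0.156, limma, adjusted p = 0.194; without midkine 5, 0.36 and 0.0300). Cfl1, cofilin itself, had 4935, 4605 and 2456 in midkine libraries and 4045, 4145 and 3220 in controls. Midkine 3 and 4 were above the controls and midkine 5 below, so its log2 fold change was 0.016 with all libraries and 0.33 without midkine 5 (adjusted p = 0.977 and 0.0488). Of the coronins, which bind Arp2/3 and filaments, Coro1c was separated, with 1807, 1996 and 5248 in midkine libraries and 1364, 1519 and 1357 in controls (log2 fold change 0.92, adjusted p = 0.226; without midkine 5, 0.43 and 0.00618). Coro1a, the coronin of blood cells, had 1365, 1247 and 1933 in midkine libraries and 1301, 1125 and 913 in controls and overlapped, as did Coro1b.

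**Figure D2:**
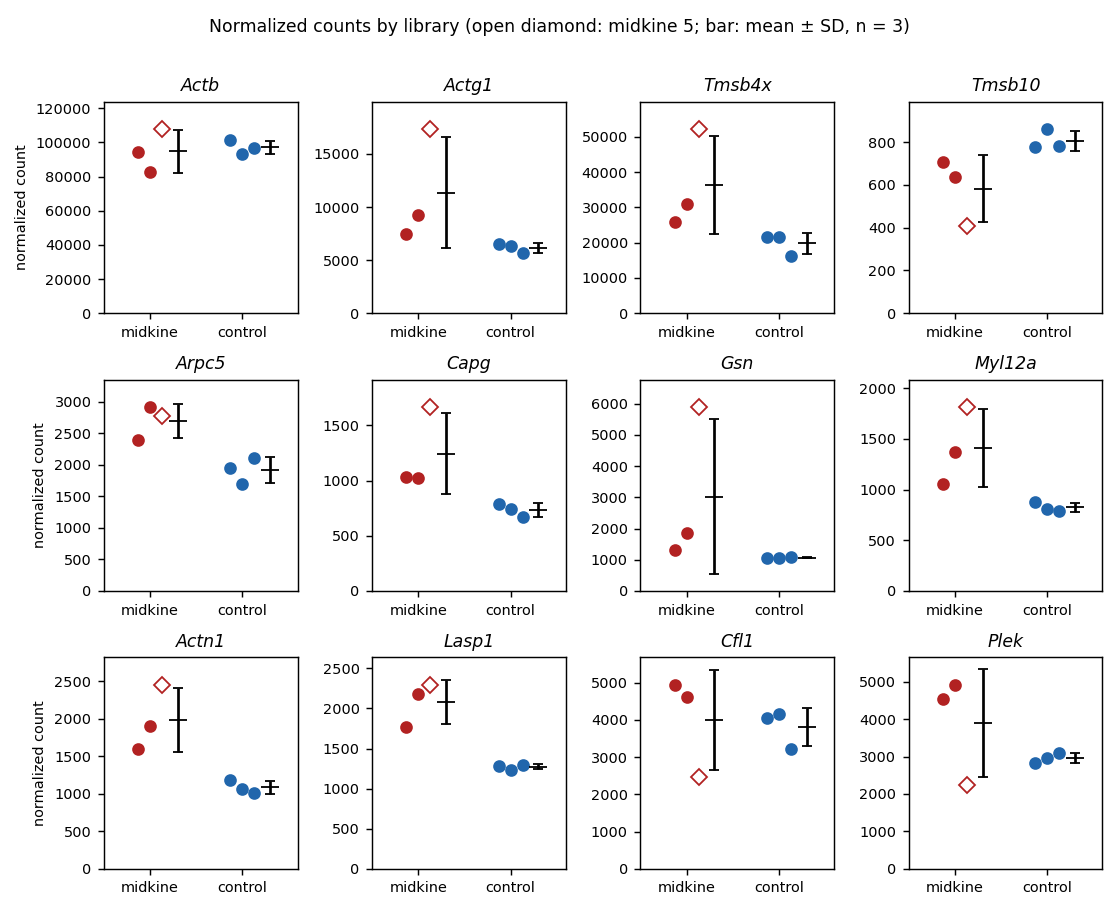
Normalized counts (vertical axis, from 0) of 12 of the genes in midkine libraries (red, left) and control libraries (blue, right), with the mean ± SD of each group (n = 3). The open diamond is midkine 5, which is highest for genes such as Gsn (5891) and lowest for Tmsb10 (408), Cfl1 (2456) and Plek (2232).

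Myosin II and the proteins that coat filaments split: the light chains lay higher and the others overlapped. Myl12a and Myl12b encode regulatory light chains of nonmuscle myosin II. Myl12a had 1053, 1366 and 1812 normalized counts in midkine libraries and 874, 807 and 789 in controls, and Myl12b had 742, 741 and 819 and, in controls, 658, 577 and 598. Both were separated, and Myl12a had a log2 fold change of 0.74 ± 0.205 (limma, adjusted p = 0.132; without midkine 5, 0.54 and 0.00298; DESeq2 with all 6, 0.0293). Myl12b had 0.33 ± 0.139 (adjusted p = 0.243; without midkine 5, 0.0688). The 2 genes are neighbours on chromosome 17. The symbol Myl12b has more than 1 annotated entry, and exons of Myl12a overlap an entry of that symbol on the same strand. The last 300 nt of Myl12b share at least 95% identity with Myl12a, so the division of reads between the 2 genes is uncertain. Myl6, the essential light chain, had 7678, 7426 and 6978 in midkine libraries and 6505, 6442 and 6497 in controls. It too was separated, by a small amount (log2 fold change 0.18 ± 0.137, adjusted p = 0.470).

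The heavy chain of the same motor, Myh9, overlapped (3934, 3526 and 2768 in midkine libraries, 3593, 4208 and 4097 in controls; log2 fold change −0.23, and −0.087 without midkine 5). The tropomyosins, which coat filaments and guard them from cofilin, overlapped too. Tpm1 had 653, 540 and 498 normalized counts in midkine libraries and 681, 672 and 633 in controls, a log2 fold change of −0.24 with all libraries and −0.15 without midkine 5. Tpm3 and Tpm4 had log2 fold changes of −0.12 and −0.15 with all libraries, and 0.013 and −0.010 without midkine 5, so the negative values rested on that library. Tagln2, a calponin-related protein of blood cells, had 5184, 4579 and 7669 in midkine libraries and 5692, 5076 and 5667 in controls, and midkine 5 alone lay above the controls. Cnn2, calponin-2, had 732, 613 and 600 in midkine libraries and 704, 728 and 652 in controls. Among smooth muscle relatives of these genes, which are not members, Tagln and Tpm2 lay lower instead. Other relatives, such as Cnn1, Acta2 and Myl9, are not given here one by one. The list of stroma, smooth muscle and endothelium markers, which holds Tagln, had 3 lower and 0 higher without overlap of 11 tested. Over all genes tested, 15.3% were lower and 15.5% higher. Tagln (SM22 alpha) had 18.4, 17.9 and 11.8 in midkine libraries and 139, 96.1 and 105 in controls, and Tpm2 (beta-tropomyosin) had 41.6, 41.2 and 38.1 in midkine libraries and 70.8, 65.5 and 75.9 in controls. Without midkine 5 limma called both lower (Tpm2 log2 fold change −0.76, adjusted p = 0.0110; Tagln −2.56, adjusted p = 2.93e-06).

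Crosslinkers included the members with the smallest p. Actn1 (chr12:80167547-80260371, minus strand, GRCm38), alpha-actinin-1, which bundles filaments and anchors them at adhesions, had 1599, 1903 and 2451 normalized counts in midkine libraries and 1184, 1062 and 1006 in controls. Its means were 1984 ± 432 with midkine and 1084 ± 90.9 in control (SD, n = 3 each), a log2 fold change of 0.85 ± 0.184 (limma, adjusted p = 0.0881; without midkine 5, 0.69 and 0.000314; DESeq2 with all 6, 0.00459). Lasp1 (chr11:97799000-97838764, plus strand), a LIM and SH3 protein found on bundles and in podosomes, had 1768, 2182 and 2294 in midkine libraries and 1288, 1237 and 1291 in controls. Its means were 2081 ± 277 with midkine and 1272 ± 30.2 in control, a log2 fold change of 0.70 ± 0.151 (adjusted p = 0.0881; without midkine 5, 0.63 and 0.000517; DESeq2 with all 6, 0.00550). For both genes the lowest midkine library lay well above the highest control, and midkine 5 was in the same direction as midkine 3 and 4.

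Actn4, alpha-actinin-4, had 714, 842 and 934 normalized counts in midkine libraries and 581, 613 and 534 in controls, also without overlap (log2 fold change 0.52 ± 0.156, limma, adjusted p = 0.146; without midkine 5, 0.43 and 0.0109). Actn1 made up 69.1, 69.3 and 72.4% of the reads of the Actn1 and Actn4 pair in midkine libraries and 67.1, 63.4 and 65.3% in controls, so the share of Actn1 was higher too. Flna, filamin A, had 3958, 4087 and 4424 in midkine libraries and 3402, 3474 and 3942 in controls, separated by a margin smaller than the spread within either group (log2 fold change 0.21, adjusted p = 0.433). Lcp1, the plastin of leukocytes, had 8572, 9699 and 5945 in midkine libraries and 7133, 6905 and 7372 in controls. Midkine 5 was below the controls for Lcp1, and without it limma called the gene higher (0.35, adjusted p = 0.0246).

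Of the adaptors that join actin to integrins, Zyx and Vcl were separated and Tln1 was not. Zyx, zyxin, a LIM protein of adhesions under tension, had 725, 732 and 755 normalized counts in midkine libraries and 605, 583 and 564 in controls. The midkine libraries were close to each other, midkine 5 included (log2 fold change 0.34 ± 0.131, limma, adjusted p = 0.221; without midkine 5, 0.32 and 0.0356). Vcl, vinculin, had 233, 259 and 278 in midkine libraries and 228, 222 and 228 in controls, a small separation (0.18 ± 0.149, adjusted p = 0.514). Tln1, talin-1, which activates integrins, had 4393, 4073 and 1833 in midkine libraries and 3913, 4562 and 4096 in controls. Midkine 5 alone was low, and without it the log2 fold change of Tln1 was 0.016 (adjusted p = 0.935).

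Plek, pleckstrin, a substrate of protein kinase C in platelets and leukocytes, had 4545, 4915 and 2232 normalized counts in midkine libraries and 2833, 2973 and 3104 in controls. It was highest in midkine 3 and 4 and lowest in midkine 5, so the fold change depended on that library: 0.31 ± 0.284 on the log2 scale with it (limma, adjusted p = 0.552) and 0.67 ± 0.0979 without it (adjusted p = 0.000171). Vim, vimentin, an intermediate filament protein, had 4807, 5137 and 5162 in midkine libraries and 4690, 4320 and 4342 in controls, separated but small (0.18, adjusted p = 0.476). The members that link actin to the plasma membrane, Msn and Ezr, overlapped. Msn, moesin, had 6502, 5540 and 4047 in midkine libraries and 6160, 5705 and 5998 in controls, and Ezr, ezrin, had 743 to 799 in midkine libraries and 751 to 848 in controls. Rdx, radixin, which is not a member, lay lower in each midkine library than in any control. It had 1205, 1108 and 810 in midkine libraries and 1312, 1391 and 1325 in controls (log2 fold change −0.39, limma, adjusted p = 0.272; without midkine 5, −0.22 and 0.136).

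**Figure D3:**
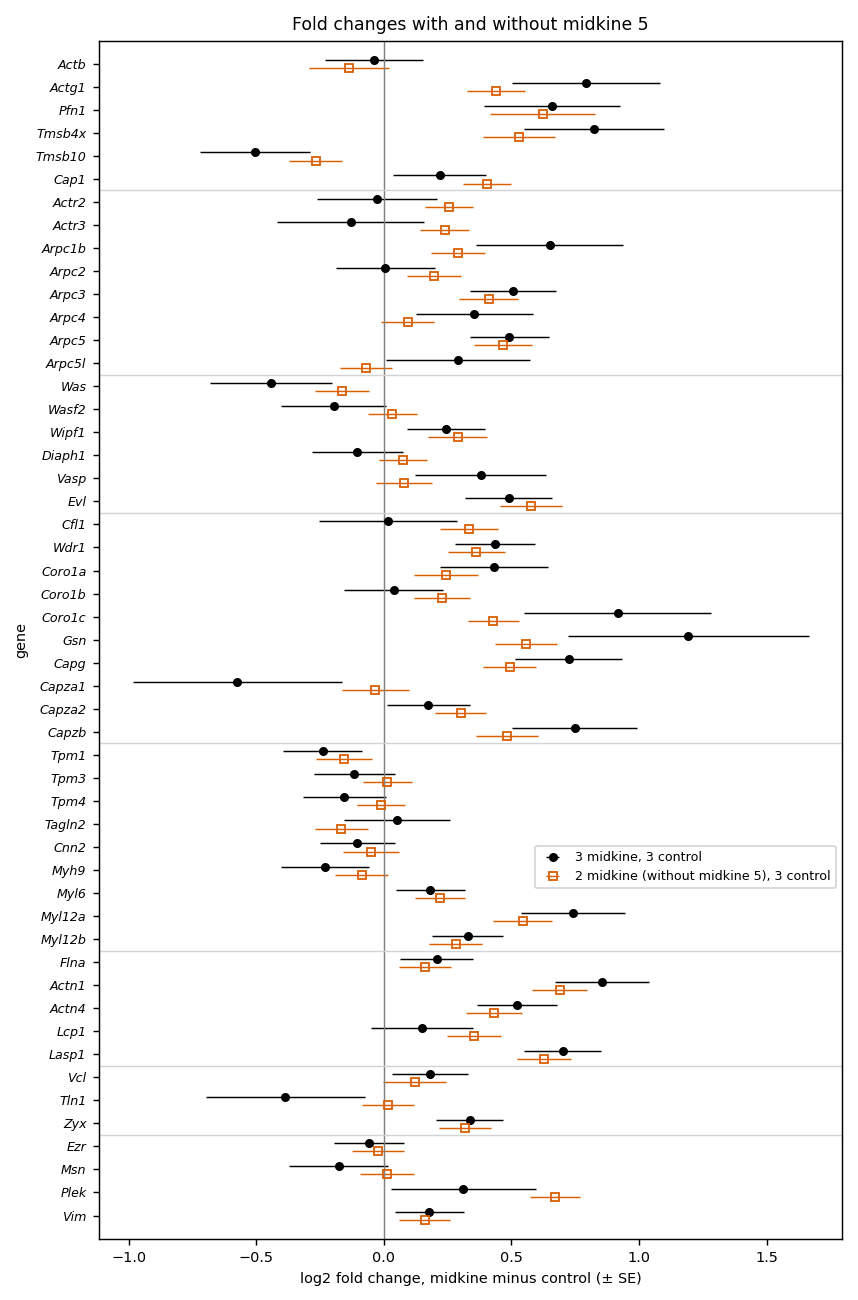
Log2 fold change ± SE, midkine minus control, of each of the 51 genes, from all 6 libraries (black) and without midkine 5 (orange squares). Actn1 (0.85 and 0.69) and Lasp1 (0.70 and 0.63) keep their place, while Plek (0.31 and 0.67), Gsn (1.19 and 0.56) and Tln1 (−0.39 and 0.016) shift with that library.

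Shares of related genes were computed for 6 pairs, and 4 of them did not overlap between the groups: Actg1 with Actb, Tmsb4x with Tmsb10, Actn1 with Actn4 and Myl12a with Myl12b. Tmsb4x made up 97.4, 98.0 and 99.2% of the reads of its pair in midkine libraries and 96.5, 96.2 and 95.4% in controls. Myl12a made up 58.6, 64.8 and 68.9% in midkine libraries and 57.0, 58.3 and 56.9% in controls. The division of reads between Myl12a and Myl12b is uncertain, as stated above. Tmsb10 also shares a near-identical 3′ end with another gene, Gm9844. With 3 libraries a group the exact test cannot give a p under 0.1, which these 4 pairs reached (0.15 after adjustment over the 6 pairs).

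**Figure D4:**
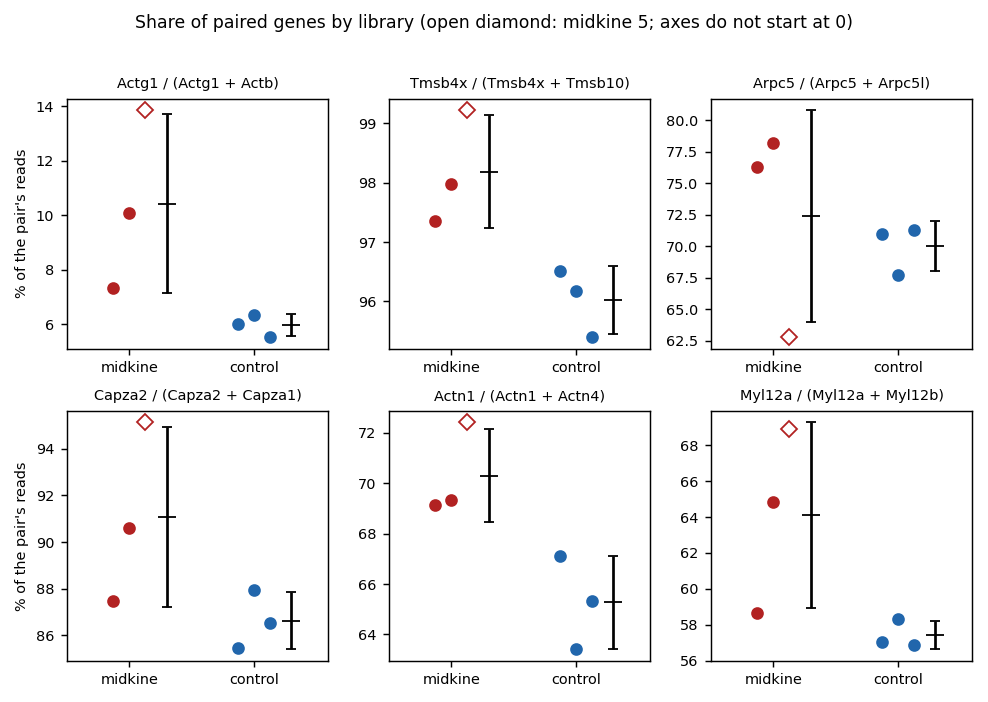
Share of 1 gene in the reads of a pair of related genes (%, axes do not start at 0), in midkine libraries (red, left) and control libraries (blue, right), with mean ± SD (n = 3). Actg1 ranges from 7.32 to 13.9% in midkine libraries and from 5.52 to 6.32% in controls, while the Arpc5 share overlaps.

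The 5 members with a CArG box in the printed promoter windows, of which the Myl6 window lies inside the gene, did not behave alike. Actg1, Myl6 and Vcl lay above all controls in all midkine libraries, and of these limma without midkine 5 called Actg1. Arpc4 and Cnn2 overlapped between the groups. The members with the smallest p, Actn1 and Lasp1, had windows without a complete box, which says only that these letters are absent there. Of 6 listed genes for SRF, its coactivators and its ternary complex partners, all measured, 3 were separated and higher (15.5% of all genes were), and 2 were called higher without midkine 5 (9.92% of all genes were). Srf itself was low, with 21.3, 26.4 and 13.6 normalized counts in midkine libraries and 13.3, 9.20 and 6.90 in controls. Mkl2, a coactivator of the myocardin-related family, had 257, 247 and 190 in midkine libraries and 109, 145 and 171 in controls (without midkine 5, log2 fold change 0.85, limma, adjusted p = 0.00148).

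Genes of the actin pathway outside the members lay on both sides. Of 87 listed, 85 were tested, and limma called 0 of them with all 6 libraries. Groups did not overlap for 16 higher and 9 lower, beside 15.5% and 15.3% of all genes tested, so the higher count was near the background. Without midkine 5 limma called 20 higher and 5 lower, beside 9.92% and 8.52% of all genes. The 14 genes of the WAVE complex and cortical adaptors had a median log2 fold change of 0.20, with 5 higher without overlap and 0 lower, to be read against the same 15.5% and 15.3%. Among them, Cttn (cortactin, which steadies branches) had 103, 110 and 152 in midkine libraries and 83.1, 62.4 and 61.1 in controls, and Nckap1l, the blood-cell subunit of the WAVE complex, had 1191, 1285 and 2097 in midkine libraries and 985, 1009 and 1027 in controls.

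Other actin-binding proteins had 5 higher and 5 lower without overlap of 34 tested, close to the 15.5% and 15.3% of all genes. Their median log2 fold change was −0.018 with all libraries and 0.066 without midkine 5, when limma called 8 higher and 3 lower. Marcks, a membrane-bound actin crosslinker, had 2677, 3223 and 3473 normalized counts in midkine libraries and 1903, 2110 and 1822 in controls (log2 fold change 0.68, limma, adjusted p = 0.0934). Cotl1, a coactosin-like protein, had 7527, 7271 and 10407 in midkine libraries and 5259, 5354 and 4907 in controls. Neither overlapped between the groups, and limma without midkine 5 called both higher (Marcks 0.60, adjusted p = 0.000828; Cotl1 0.52, adjusted p = 0.00150). The others higher without overlap were Arpc1a, Fmnl3 and Myo1f. The 5 lower were Tpm2, Lsp1, Rdx, Cfl2 and Swap70. Lsp1 had 2000, 1543 and 1055 in midkine libraries and 2631, 2922 and 2443 in controls. Its log2 fold change was −0.84 (limma, adjusted p = 0.132; without midkine 5, −0.60 and 0.00160).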

How the data were processed

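Per the labels' protocols, RNA was turned into QuantSeq 3′ FWD libraries. Tools listed in the submitters' processing notes are TopHat2 2.0.10, Bowtie 1.0.0, HTSeq, DESeq2, SAMtools 0.1.19 and FastQC 0.11.0, with build GRCm38 (mm10). Which annotation, strand setting and filter on genes were used is not given in the sources used here. The deposited values are normalized counts, a signal made by the authors from gene counts divided by a factor per library. Whole reads were recovered from the smallest step of each library for 100% of values, within 0.01 reads. Columns of other samples numbered 0.

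The test was limma 3.58.1 (R 4.3.3, trend, two-sided) on log2(normalized count + 1) for the 13543 genes with a mean of at least 5 over 6 libraries, with Benjamini-Hochberg adjustment over all of them and a threshold of 0.05. All 51 members passed that filter, with means of 231 or more. Group values are given with SD over 3 libraries. The recovered reads went into edgeR 4.0.16 and DESeq2 1.42.0 as alternatives, and 17 alternatives were run in all. Intervals for counting error were not needed, since each member had at least 82.6 normalized counts in every library. Positions and overlaps came from GENCODE M21 on GRCm38. Exons overlapped a gene on the opposite strand for 21 members and on the same strand for 6, and 9 members (Tmsb10, Actr3, Was, Cfl1, Coro1b, Tpm3, Myl6, Myl12b and Plek) shared at least 100 nt at 95% identity with another gene in their last 300 nt (blastn 2.17.0), so their values are uncertain. Among the 6, the overlap of Myl12b was with another entry of the same symbol, while 50 members had a single entry. Scripts were tested on simulated counts. Figures used matplotlib 3.10.9.

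The members and gene lists were chosen with earlier results of these data known, so no list was tested as a set. All members may be named; values in every library are given, by role, for the 3 with the smallest p and the one with the highest mean, and up to 3 genes of other lists. Further members with values by library were chosen after their values were seen, as were Arpc1a, Rdx and Lsp1 of the other lists. A further list of pathway genes is counted in the totals and is not reported here on its own.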

Additional observations from a re-analysis of the deposited data

How the results depend on the processing

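No paired analysis was possible because the groups share only replicate number 4. With all 6 libraries limma called 0 members, 0 pathway genes and 0 of all genes. Array weights called 26 members, 38 pathway genes and 5076 genes, DESeq2 6, 3 and 684, and edgeR without midkine 5 called 21, 26 and 2508. All genes called were 10 with a pseudocount of 4, 9 with no filter, 7 with TMM scaling, 16 with quantile normalization and 10 with edgeR, where 0 members were called. Leaving out 1 library at a time with limma gave 0 to 21 members, 0 to 25 pathway genes and 0 to 2497 genes, and every count above 0 came from leaving out midkine 5. Members above the controls without overlap were 21, 17 with quantile normalization, and 22 to 32 with 1 library left out. Members below were 1, and 2 with quantile normalization and 1 to 8 with 1 library left out (8 without midkine 3). The members' median log2 fold change of 0.21 was 0.15 with quantile normalization, 0.24 with array weights, 0.25 with edgeR without midkine 5, and 0.18 to 0.24 with 1 library left out.

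Over the alternatives, 38 of 51 members kept their sign. The other 13 overlapped between the groups. Quantile normalization gave 0.55 for Actb, −0.17 for Arpc2, −0.12 for Cfl1, −0.00030 for Coro1b and −0.051 for Tagln2. Array weights gave 0.27 for Actr2, 0.24 for Actr3, −0.00076 for Arpc5l, 0.038 for Diaph1, −0.24 for Tagln2 and 0.013 for Wasf2. Actr2 had 0.018 with edgeR and 0.023 with DESeq2. edgeR without midkine 5 gave 0.26 for Actr2, 0.25 for Actr3, −0.062 for Arpc5l, 0.083 for Diaph1, 0.024 for Msn, −0.16 for Tagln2, 0.023 for Tln1, 0.021 for Tpm3 and 0.041 for Wasf2. With 1 library left out, the values ranged from −0.14 to 0.055 for Actb, −0.19 to 0.25 for Actr2, −0.34 to 0.24 for Actr3, −0.12 to 0.20 for Arpc2, −0.070 to 0.50 for Arpc5l, −0.33 to 0.034 for Wasf2, −0.22 to 0.074 for Diaph1, −0.17 to 0.33 for Cfl1, −0.089 to 0.23 for Coro1b, −0.20 to 0.013 for Tpm3, −0.17 to 0.20 for Tagln2, −0.61 to 0.016 for Tln1 and −0.33 to 0.012 for Msn. The cause of these shifts was not tested. Each group had 3 libraries, and each member had a mean of at least 231 normalized counts.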
